A study of Mus musculus with 14 samples.

Results

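Smarca4, the ATPase of the BAF chromatin remodelling complex, was mapped in 81K1 mouse embryonic stem cells before and after depletion of the BAF subunit Smarcb1. The peaks of both Smarca4 lists merged into 100253 sites, of which 28545 were distal. Distal sites lay outside every annotated gene body and more than 2.5 kb from every transcription start site (TSS). Described here are the 6322 distal sites that overlapped by at least 1 bp an H3K27ac island and an H3K4me3 island, each from the list of either condition. These member sites were thus chosen by the measured calls of Smarca4, H3K27ac and H3K4me3. Those calls are given below as description and support nothing about the choice itself.

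81K1 cells descend from a single clone of the OG2 embryonic stem cell line and carry, at the Rosa26 locus, an shRNA against Smarcb1 that doxycycline switches on. Control and Smarcb1 kd cells were the same line and shared this cassette. The kd cells had been kept in 1 µg/ml doxycycline for 72 h and the control cells were left without it. Chromatin immunoprecipitation with sequencing gave 1 library for each of 5 antibodies in each condition (Smarca4, Ezh2, H3K27me3, H3K27ac and H3K4me3), with 4 background samples. There was no replicate, so that no test between conditions was made and the intervals printed cover counting error only. A service company carried out the Smarca4 and H3K27me3 experiments from immunoprecipitation to sequencing, whereas chromatin for Ezh2, H3K27ac and H3K4me3 was precipitated by the authors and its libraries came from a core facility, so that differences between these antibodies cannot be told apart from differences between laboratories. Peak lists do not measure the level of Smarcb1. For depth, the paper gives only an approximate number of reads per sample for Ezh2, H3K27ac and H3K4me3, and none for Smarca4 and H3K27me3. The exact depth of each library is unknown. On the chromosomes analysed the lists held 79014 Smarca4 peaks in control and 72339 in kd, 39091 and 51100 H3K27ac islands, and 26130 and 33506 H3K4me3 islands. The label of the cells was checked at promoters: 11 of 12 core pluripotency genes carried both H3K27ac and H3K4me3 within 1000 bp of a TSS in control and 12 of 12 in kd, and 13 and 19 of 22 naive pluripotency genes did.

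BAF moves nucleosomes and thereby opens DNA to other proteins, and Smarcb1 is a core subunit that anchors the complex to the nucleosome. H3K27ac is deposited at active promoters and enhancers, whereas H3K4me3 is the typical mark of promoters, so that the pair is usually met where transcription starts. Mouse genomes hold many such starts inside repeats: young LINE-1 retrotransposons, which copy themselves through RNA, begin with a promoter built of GC-rich units repeated in tandem. The reference used here marks repeats in lower case without naming their family, and no family was assigned to any site.

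Many of the member sites turned out to be arrays of a few sequences. In 2986 of the 6322 sites, 47.2% (95% interval 46.0 to 48.5), the central 600 bases repeated themselves at a spacing of 190 to 220 bases, with at least 60% of the bases equal to the base 1 unit further on. Only 20 of the 22223 other distal Smarca4 sites did so, 0.0900% (0.0583 to 0.139), and 15 of these 20 were among the 1792 distal sites with H3K4me3 and no H3K27ac. The spacings fell on a few exact lengths, namely 208, 212, 214, 201 and 204 to 206 bases. One unit of each main length is printed here because the Smarca4 calls differed between them. Each comes from the member with the most regular repeat of that length, read from mm10 on the strand that the members share. Capitals mark the word AAGATGGCG or its reverse complement CGCCATCTT, the core of the binding motif of the transcription factor Yy1. The unit of 212 bases was taken from the most regular member that held this word within a set part of its central bases. It was cut so that the word begins at base 61, and the other units were turned to align with it.
Unit of 212 bases, chr4:23652900-23653111, minus strand: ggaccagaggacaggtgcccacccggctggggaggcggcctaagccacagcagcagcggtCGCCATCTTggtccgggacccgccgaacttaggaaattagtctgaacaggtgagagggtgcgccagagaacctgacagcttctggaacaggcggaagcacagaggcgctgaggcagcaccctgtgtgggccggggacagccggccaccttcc
Unit of 214 bases, chr6:116883411-116883624, minus strand: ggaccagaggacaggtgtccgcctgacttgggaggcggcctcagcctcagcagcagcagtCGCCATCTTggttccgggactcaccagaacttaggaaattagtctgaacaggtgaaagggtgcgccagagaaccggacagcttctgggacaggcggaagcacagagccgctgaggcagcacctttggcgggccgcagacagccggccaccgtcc
Unit of 206 bases, chr2:100766282-100766487, plus strand: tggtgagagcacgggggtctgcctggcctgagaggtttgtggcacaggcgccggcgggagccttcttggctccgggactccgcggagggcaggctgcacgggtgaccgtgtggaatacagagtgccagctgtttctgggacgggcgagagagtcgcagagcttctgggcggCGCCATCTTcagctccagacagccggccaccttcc
Unit of 208 bases, chr15:49378861-49379068, minus strand: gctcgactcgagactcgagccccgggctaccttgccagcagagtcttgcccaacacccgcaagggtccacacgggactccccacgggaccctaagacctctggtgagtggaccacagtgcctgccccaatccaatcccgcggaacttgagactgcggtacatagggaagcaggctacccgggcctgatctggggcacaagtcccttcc
Unit of 201 bases, chr2:21307443-21307643, plus strand: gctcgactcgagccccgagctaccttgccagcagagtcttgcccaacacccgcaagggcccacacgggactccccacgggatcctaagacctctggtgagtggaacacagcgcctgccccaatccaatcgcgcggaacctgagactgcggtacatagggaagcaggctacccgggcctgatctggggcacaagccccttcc

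These units formed separate kinds. In a global alignment the units of 212 and 214 bases were 89.3% identical, and those of 208 and 201 bases were 92.8% identical. Across these pairs the identity was 53.1% to 55.5%, and the unit of 206 bases reached 63.6% with that of 212, 64.5% with that of 214 and 54.1% and 54.3% with those of 208 and 201. With the unit of 212 bases cut to put the Yy1 word at bases 61 to 69, the aligned unit of 214 held it at the same bases. The unit of 206 held the word at bases 172 to 180. The printed units of 208 and 201 bases did not hold it. All 5 were GC-rich, at 63.1% to 67.0%.

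The calls of Smarca4 split along the same line. Among 1008 members with a unit of 211 to 212 bases, Smarca4 was called in both conditions at 859, in control alone at 1 and in kd alone at 148. Among 959 members with a unit of 208 bases the order was turned round, with 78 called in both, 2 in control alone and 879 in kd alone. As shares, 85.2% of the former were called in both conditions and 91.7% of the latter in kd alone. The 259 members with a unit of 199 to 201 bases resembled those of 208, with 29 in both, 2 in control alone and 228 in kd alone. The 196 with a unit of 204 to 206 bases resembled those of 212, with 155 in both and 41 in kd alone. Members with a unit of 214 bases stood between, 294 in both, 2 in control alone and 229 in kd alone. For all 6322 members the figures were 2694 in both (42.6%, 41.4 to 43.8), 235 in control alone (3.72%, 3.28 to 4.21) and 3393 in kd alone (53.7%, 52.4 to 54.9). Of all merged Smarca4 sites, 25.7% were called in kd alone and 34.6% in control alone. Distal sites with H3K4me3 and no H3K27ac had the same share in kd alone as members, 53.7% (51.4 to 56.0), with more in control alone, 10.3% (8.95 to 11.8). These lengths were sorted into classes after the data had been seen.

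**Figure D1:**
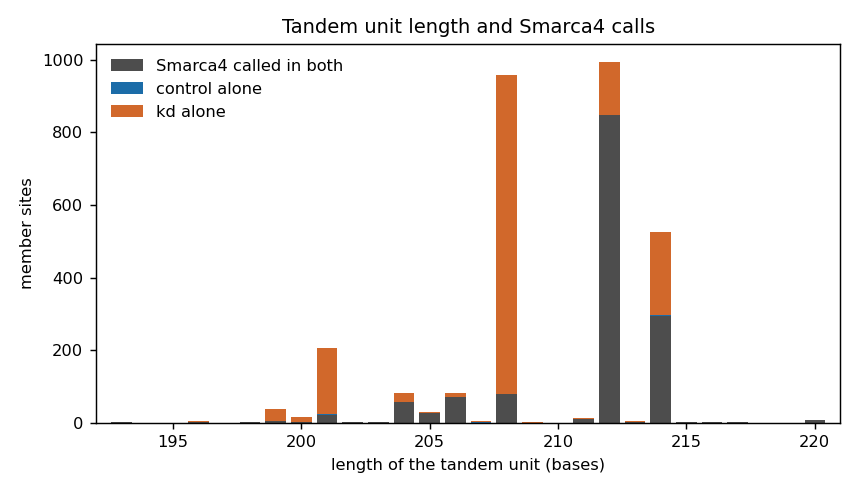
Number of member sites (vertical axis) by the length of their tandem unit in bases (horizontal axis), coloured by the condition in which Smarca4 was called. The bar at 212 is mostly called in both conditions and the bar at 208 mostly in kd alone.

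The scores of the calls differed between these classes too. MACS2 gives each peak a score, a whole number that rises with its confidence and is not scaled between libraries. Sites with a unit of 211 to 212 bases had a median score of 64 in the control list and 249 in the kd list, and where both lists had a peak the median log2 ratio of kd to control was 2.0 (quartiles 1.52 to 2.52, n = 859 pairs). For the unit of 208 bases the medians were 38 and 84, each over the sites called in that list. Where both lists had a peak its median log2 ratio was 1.57 (quartiles 1.00 to 2.04, n = 78 pairs), so that scores were higher in kd for both units. At a like kd score the classes still differed. Among kd peaks with a score of at least 100 and below 200, 183 of 242 sites with the unit of 211 to 212 bases were also called in control (75.6%, 69.8 to 80.6), against 48 of 366 with the unit of 208 (13.1%, 10.0 to 17.0). At 50 or more and below 100 it was 6 of 12 against 25 of 426.

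**Figure D2:**
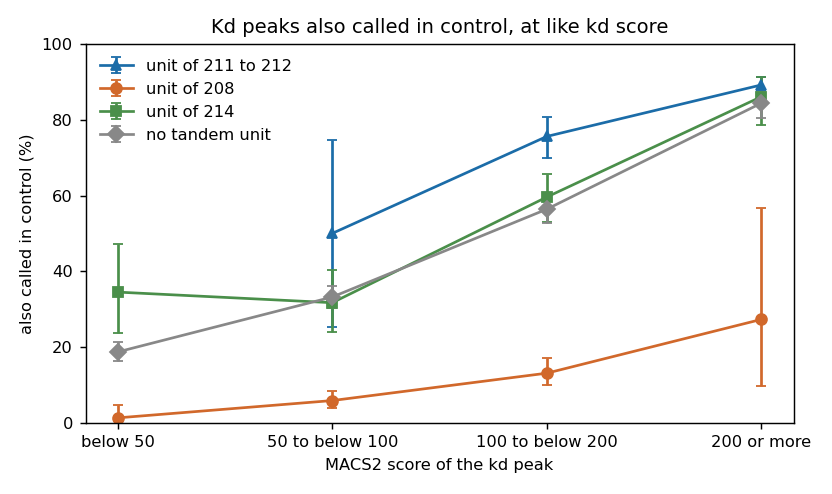
Share of member sites with a kd peak that were also called in control (vertical axis, %, with 95% Wilson intervals) by the MACS2 score of the kd peak (horizontal axis), for 3 unit lengths and for members without a tandem unit. Points with under 10 sites are left out, and the sites with a unit of 208 bases lie lowest in each score range.

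Most bases of these arrays occur more than once in the genome. The authors kept uniquely aligned reads. The median share of a site's 75-base words that occur once in the reference was 5.95% for the unit of 208 bases, 9.08% for 211 to 212, 28.5% for 214 and 33.7% for 199 to 201. It was 20.5% over all members and 100% for distal sites with no histone mark. The units of 208 and of 211 to 212 bases thus had similar low shares. The part of read placement in the calls was not tested.

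Sites that the rule had left out showed the same split. Of the 71708 Smarca4 sites inside genes or near a TSS, 1426 carried a unit of these lengths. There, 474 of 543 with a unit of 211 to 212 bases were called in both conditions (87.3%, against 85.2% in members), and 378 of 406 with a unit of 208 bases in kd alone (93.1%, against 91.7%).

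The units were then searched for in the whole genome, without regard to any peak, as runs of at least 380 bp that matched 1 of the 5 printed sequences at 85% identity or more. The printed sequences came from member sites, and the arrays found include loci counted above, so that they are not an independent set. This found 5681 arrays, of which 2413 overlapped a Smarca4 peak in control and 5002 in kd. Of 1679 arrays most like the unit of 212 bases, 1430 had a peak in control (85.2%, 83.4 to 86.8) and 1678 in kd (99.9%). Of 1393 most like the unit of 208 bases, 106 had one in control (7.61%, 6.33 to 9.12) and 1325 in kd (95.1%, 93.9 to 96.1). The unit of 201 bases gave 48 and 594 of 1005, the unit of 214 bases 509 and 950 of 1062, and the unit of 206 bases 320 and 455 of 542. Longer arrays kept the difference: at 1000 bp or more, 333 of 343 arrays of the 212 type and 61 of 304 of the 208 type had a control peak, while all 343 and all 304 had a kd peak. Presence in an H3K4me3 island did not divide the arrays in this way. In control 100% of the 212 type and 98.5% of the 208 type lay in one, with 96.3% for 214, 88.7% for 206 and 84.2% for 201. For H3K27ac in control the shares were 99.1% for the 212 type, 97% for 214, 86.2% for 208, 81.1% for 201 and 67.7% for 206. The order of the types thus differed from that of the Smarca4 peaks, since the 206 type stood second for Smarca4 in control and last for H3K27ac.

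**Figure D3:**
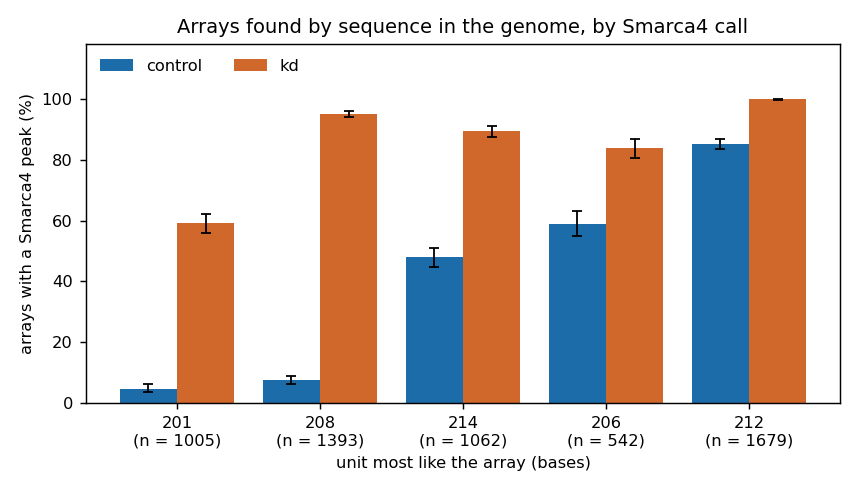
Share of the arrays found by sequence that overlapped a Smarca4 peak in control and in kd (vertical axis, %, with 95% Wilson intervals), by the printed unit each array resembles most (horizontal axis, n arrays). Control peaks lie on 4.78% and 7.61% of the arrays of the 201 and 208 types and on 85.2% of the 212 type.

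The Yy1 word went with these classes. Yy1 is a zinc finger protein that binds near many start sites. The word, on either strand of the central 300 bases, occurred in 36.0% of the members, in 1.40% of 32851 RefSeq promoters of the same length, in 0.481% of distal sites with H3K27ac and no H3K4me3, in 5.58% of those with H3K4me3 and no H3K27ac, and in 1.38% of distal sites with no histone mark. By unit it was in 981 of 1008 members of 211 to 212 bases (97.3%), 186 of 196 of 204 to 206 bases (94.9%), 320 of 525 of 214 bases (61.0%), 3 of 959 of 208 bases (0.313%) and 1 of 259 of 199 to 201 bases. Among the unit classes only that of 214 bases was split by the word, which did not mark the sites called in control there. With the unit of 214 bases, 163 of 320 members that had the word were called in both conditions (50.9%, 45.5 to 56.4), and 131 of 205 that lacked it (63.9%, 57.1 to 70.2). A match is a word in the reference and says nothing about Yy1 itself, which was not measured. The other words spelled out here were rarer in members than in promoters. The nuclear receptor word TCAAGGTCA of Esrrb was in 0.237%, against 0.423% of promoters and 1.91% of distal sites with H3K27ac alone, the Klf word GGGTGTGGC in 0.301% against 1.35% and 1.30%, the octamer ATGCAAAT in 0.886% against 1.74% and 1.85%, and the Ets word CCGGAAGT in 0.190% against 3.89% and 0.546%. The NF-Y word CCAATCAG (0.490% of members, 4.10% of promoters), the cAMP response element TGACGTCA (0.0633%, 1.79%), the Nrf1 word GCGCATGCG (0.0791%, 1.75%) and the TATA word TATAAAAG (0.348%, 1.70%) stood likewise. Among members under 50% masked alone, the Esrrb word was in 1.24% and the octamer in 1.87%, above their shares in promoters. The rest of these words stayed below theirs. The Ctcf consensus was in 0.190% of members and 0.557% of promoters. The Pou5f1-Sox2 consensus was in 1 member, 0.0158%, and in 0.00913% of promoters.

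Many other members were linked to these sites by partial likeness of sequence. When sites were linked by at least 80% identity over at least 50% of the shorter site, 5374 of the 6322 fell into groups and 5299 (83.8%) into a single group spread over all 21 chromosomes analysed. All 2986 sites with a tandem unit belonged to it. A stricter link, 90% over 80%, which was chosen after the data had been seen, left 4344 sites in the largest group and 490 in the next. The large group is printed here by its member with the most links, next to those of the other groups among the 5 largest, of 19, 14, 12 and 4 sites.
Group of 5299 sites, chr16:51729931-51730130, plus strand: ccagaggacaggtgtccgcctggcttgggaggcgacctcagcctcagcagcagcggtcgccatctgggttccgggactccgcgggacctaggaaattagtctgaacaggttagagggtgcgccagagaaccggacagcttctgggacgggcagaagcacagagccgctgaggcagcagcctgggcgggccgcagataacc
Group of 19 sites, chr6:47652455-47652654, plus strand: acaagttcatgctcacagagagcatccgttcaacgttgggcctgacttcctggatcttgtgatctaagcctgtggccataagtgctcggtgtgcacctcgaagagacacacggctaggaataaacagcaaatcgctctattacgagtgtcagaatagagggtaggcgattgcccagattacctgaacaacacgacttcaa
Group of 14 sites, chr6:37464357-37464556, plus strand: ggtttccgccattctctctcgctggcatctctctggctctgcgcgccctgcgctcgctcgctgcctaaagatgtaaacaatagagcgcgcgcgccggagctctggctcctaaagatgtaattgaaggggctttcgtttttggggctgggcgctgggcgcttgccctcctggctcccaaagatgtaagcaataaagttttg
Group of 12 sites, chr2:160637212-160637411, plus strand: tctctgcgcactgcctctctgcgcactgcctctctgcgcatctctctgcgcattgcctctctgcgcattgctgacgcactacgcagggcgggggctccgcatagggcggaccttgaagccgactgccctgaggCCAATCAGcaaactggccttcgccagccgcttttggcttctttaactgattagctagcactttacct
Group of 4 sites, chr11:121925020-121925219, plus strand: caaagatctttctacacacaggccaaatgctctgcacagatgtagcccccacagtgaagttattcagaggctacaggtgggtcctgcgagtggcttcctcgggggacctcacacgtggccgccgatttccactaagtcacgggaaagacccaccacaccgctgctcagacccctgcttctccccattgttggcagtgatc
In the group of 12, capitals mark a match to the NF-Y word, the only listed word in these 5 windows. The 14 sites and the 12 sites were mostly called in kd alone, 13 and 10 of them.

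Repeat-masked bases were correspondingly frequent. At least 50% of the bases were masked in 5197 members, 82.2% (81.2 to 83.1), against 49.4% (47.1 to 51.7) of distal sites with H3K4me3 and no H3K27ac, 26.2% with H3K27ac and no H3K4me3, 5.92% with H3K27me3 alone and 18.3% with no histone mark. The median member was 99.4% masked, while 36.4% of the genome was. GC content had a median of 60.6% in members and 54.2%, 48.5%, 53.2% and 51.1% in these other classes in the same order. The median ratio of observed to expected CpG dinucleotides was 0.529 in members, 0.573 with H3K4me3 and no H3K27ac, and 0.218, 0.283 and 0.237 in the other classes.

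**Figure D4:**
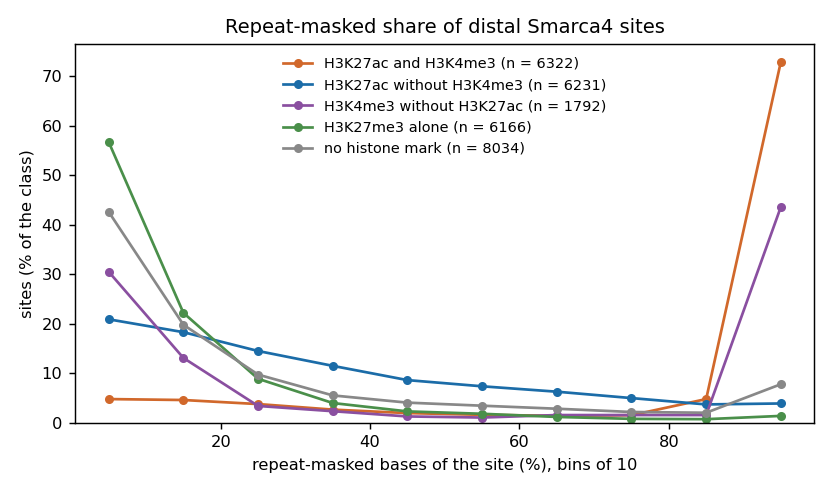
Distribution of the repeat-masked share of each site (horizontal axis, bins of 10%) as the percent of sites in each class of distal Smarca4 site (vertical axis). Members pile up in the highest bin, which also holds 43.6% of the sites with H3K4me3 and no H3K27ac, and sites with H3K27me3 alone or no histone mark in the lowest.

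Between conditions the masked members and the others gave different numbers. Of the 5197 masked members, 1922 were called in both conditions, 97 in control alone and 3178 in kd alone, a log2 ratio of the latter to those in control alone of 5.03 (4.74 to 5.33). Of the 1125 others, 772 were called in both, 138 in control alone and 215 in kd alone, a log2 ratio of 0.64 (0.33 to 0.95). The median log2 ratio of the scores, where both lists had a peak, was 1.65 in masked members and 0.06 in the others. Masking as such went along with kd-only calls outside the members too. Other masked distal sites were called in kd alone at 61.0% (59.6 to 62.5), like masked members at 61.2% (59.8 to 62.5). Their share in control alone was higher, 24.9% against 1.87%. The log2 ratio of these other masked sites was 1.30 (1.19 to 1.40), against -0.93 (-0.98 to -0.88) for other distal sites that were not masked. Sites inside genes or near a TSS gave 1.25 when masked and -0.99 when not.

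The site stood near one end of a long masked stretch. In 5297 sites of the large group the strand could be read from the alignments. On the shared strand the masked stretch reached a median of 447 bp upstream of the site centre and 6290 bp downstream (quartiles 6084 to 6685), and the downstream side was the longer in 4745 sites (89.6%).

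The islands over the members had that same size. The 4569 H3K27ac islands that held members in control had a median width of 6400 bp, against 3400 bp for all H3K27ac islands, and the 5068 in kd also 6400 bp, against 2600 bp. Of these islands 70.3% and 68.2% were 5 to 8.5 kb wide, compared with 30.7% and 23.7% of all H3K27ac islands. H3K4me3 islands differed between conditions. Their median width over members was 4000 bp in control (4732 islands) and 6600 bp in kd (5107 islands), while that of all H3K4me3 islands was 3200 and 3400 bp. For the 5256 members in an H3K4me3 island of both conditions the kd island was the wider at 3919 (74.6%, 73.4 to 75.7) and the narrower at 951. Of the masked members 78.3% lay in a wider island in kd (3712 of 4738), whereas 207 of 518 others did (40.0%) and 263 of them lay in a narrower one. The part of sequencing depth in these widths was not tested.

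Set along the shared strand, H3K4me3 in control was densest at the site and thinned out downstream. At 3 kb downstream of the centre 64.5% of sites with the unit of 211 to 212 bases lay in an H3K4me3 island in control and 96.2% in kd, and at 6 kb 25.5% and 70.5%. The unit of 208 bases gave 60.5% and 96.7% at 3 kb, and 24.3% and 70.2% at 6 kb. For H3K4me3 the values of both kinds lay close together, unlike those of Smarca4. For H3K27ac the shares at 6 kb were 61.4% in control and 63.5% in kd for the unit of 211 to 212 bases, and 64% and 63.1% for the unit of 208. Nearer the site the unit of 208 had the lower H3K27ac share in control. At 400 bp it had 85.9% in control and 98.1% in kd, and at 1 kb 88.1% and 97%, while the unit of 211 to 212 bases had 98.8% and 99.9% at 400 bp. Upstream the islands ended early, with 6.15% to 10.6% of the sites of this unit covered at 2 kb in any of the 4 lists.

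**Figure D5:**
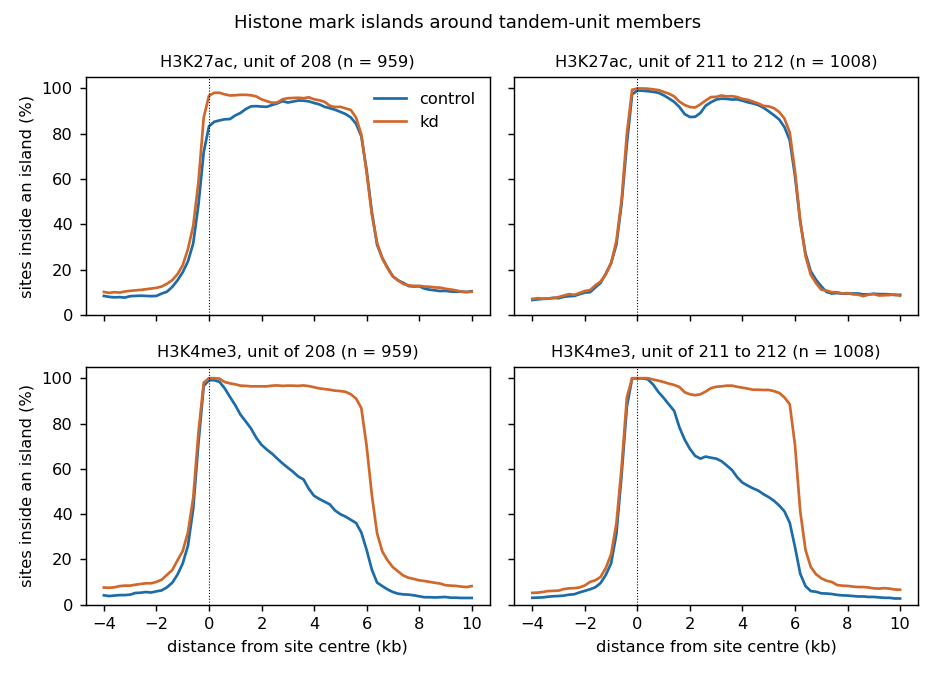
Percent of sites that lie inside an island (vertical axis) at each distance from the site centre (horizontal axis, kb, positive downstream on the shared strand), for H3K27ac (top) and H3K4me3 (bottom) and for units of 208 and of 211 to 212 bases, in control and kd. H3K4me3 in control falls off downstream while the kd curve stays high to about the end of the masked stretch.

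Both marks were mostly called in control already. H3K27ac was called in both conditions at 81.7% of members, in kd alone at 14.2% and in control alone at 4.11%. Of all merged Smarca4 sites in an H3K27ac island, 33.3% had it in kd alone and 12.0% in control alone. H3K4me3 was called in both at 83.1%, in kd alone at 13.0% and in control alone at 3.81%, where 15.6% and 7.82% of all Smarca4 sites in an H3K4me3 island had it in kd alone and in control alone. The commonest pattern, 2519 sites, was both marks in both conditions with Smarca4 in kd alone, followed by 1935 with all 3 in both conditions. Of the 3393 members with Smarca4 in kd alone, 2680 carried both marks already in control (79.0%, 77.6 to 80.3).

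Calls of the repressive side were few. Ezh2, the methyltransferase of Polycomb Repressive Complex 2, was called at 0.917% of members, against 6.08% of all merged Smarca4 sites, and its product H3K27me3 at 6.44%, against 34.4%. Other distal classes lay on both sides for Ezh2. It was called at 0.0802% of distal sites with H3K27ac and no H3K4me3 and at 0.0124% of those with no histone mark. With H3K27me3 alone the share was 2.47%, and with H3K4me3 and no H3K27ac 14.1%. Among masked members the shares of Ezh2 and H3K27me3 were 0.0770% and 3.27%.

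Of the members with Ezh2, many came from a single locus. On chromosome 6, between Ezh2 and Pdia4, 78 members stood in a tandem array at chr6:47649492-47778387, and 34 of the 58 members with an Ezh2 peak were among them (19 in both lists, 11 in control alone and 4 in kd alone). All 78 lay in H3K27me3 and H3K4me3 islands of both conditions and in an H3K27ac island of kd alone. Smarca4 was called in both conditions at 45, in control alone at 1 and in kd alone at 32. Masking was low, with a median of 17.8%, but the median share of 75-base words occurring once was 0%. RefSeq annotates the gene Rn4.5s, which encodes a small RNA of rodents, at chr6:47654921-47655094, shown here because each of its copies in the array lay under a Smarca4 site.
Rn4.5s, chr6:47654921-47655094, minus strand: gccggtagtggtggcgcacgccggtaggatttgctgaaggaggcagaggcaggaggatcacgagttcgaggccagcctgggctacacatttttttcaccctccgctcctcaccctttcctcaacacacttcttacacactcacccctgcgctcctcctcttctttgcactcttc
The array held 15 stretches at least 90% identical to it over 90% of its length, a median of 4338 bp apart. All 15 lay under a member site, and 14 of these 15 sites were called in both conditions. The sites between the copies were called in both conditions at 31 and in kd alone at 31. The group of 19 similar sites printed above comes from this array.

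The members with less masking were fewer. Leaving out the array, 1053 sites were under 50% masked, with a median GC content of 49.9% and a median of 100% of their 75-base words occurring once. Smarca4 was called in both conditions at 69.1%, in control alone at 13.0% and in kd alone at 17.9%. H3K4me3 was in kd alone at 46.7% here, against 15.6% of all Smarca4 sites in an H3K4me3 island. H3K27ac was in kd alone at 30.8%, near the 33.3% of all Smarca4 sites in an H3K27ac island. Of the 1125 sites under 50% masked, array included, 24 overlapped an enhancer annotated by RefSeq (2.13%, 1.44 to 3.15), and of the 5197 masked sites 3 did (0.0577%). They also lay closer to genes, a median of 10119 bp from the nearest TSS against 32526 bp.

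Some members were linked to genes of the pluripotent state. With the nearest protein-coding TSS within 100 kb as the link, 14 members belonged to 5 of 12 core pluripotency genes (Pou5f1, Nanog, Sall4, Utf1 and Zfp281), and 11 of these were called in both conditions. Over all 21911 protein-coding genes, 2026 had a linked member in this sense (9.25%), and 1576 of their 3246 members were called in both conditions (48.6%). The lists are short and were not tested against this share. The site 3860 bp from Pou5f1, which encodes the factor Oct4, spanned chr17:35498090-35502158 and scored 778 in control and 737 in kd, with both marks in both conditions. At Nanog, another core factor, the highest site scored 156 in control and 366 in kd. The highest sites linked to Sall4, a zinc finger factor, and to Zfp281 were far off, at 71555 and 52931 bp, and scored 190 and 204, and 344 and 272. That of Utf1, at 3074 bp, scored 57 and 66. Scores of a single site in 2 libraries that are not scaled to each other do not show a difference.

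Of 22 naive pluripotency genes, 7 had a linked member, 20 sites in all, with 11 called in both conditions, 3 in control alone and 6 in kd alone. The site of Klf2, a Krüppel-like factor, scored 53 and 39, and that of Prdm14, a repressor of differentiation, 209 and 126 with H3K4me3 in kd alone. The site of Klf5 was listed in control alone, at 64. Those of Zfp42, 67 and 99, of Nr0b1, kd alone at 41, and of Tet2, 32 and 274, were 91.6% to 100% masked. Tet2, which oxidises methylated cytosine, thus had a unit of the 212 kind in its neighbourhood, and the Pax3 site, 86 and 345, was of that kind too. The central 200 bases of 4 of these sites are printed to set a masked copy beside sites under 50% masked, with matches to the listed words in capitals (the Klf word at Klf2 on the reverse strand, and the Yy1 word at Tet2).
Nanog site, chr6:122702978-122703177, plus strand: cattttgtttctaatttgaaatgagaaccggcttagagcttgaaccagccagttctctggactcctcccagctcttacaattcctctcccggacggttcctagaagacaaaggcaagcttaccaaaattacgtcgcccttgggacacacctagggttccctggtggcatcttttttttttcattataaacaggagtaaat
Klf2 site, chr8:72322986-72323185, plus strand: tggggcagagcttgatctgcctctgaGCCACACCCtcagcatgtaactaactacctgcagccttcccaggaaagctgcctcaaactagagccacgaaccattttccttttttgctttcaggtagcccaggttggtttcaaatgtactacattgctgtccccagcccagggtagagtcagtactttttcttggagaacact
Prdm14 site, chr1:13104159-13104358, plus strand: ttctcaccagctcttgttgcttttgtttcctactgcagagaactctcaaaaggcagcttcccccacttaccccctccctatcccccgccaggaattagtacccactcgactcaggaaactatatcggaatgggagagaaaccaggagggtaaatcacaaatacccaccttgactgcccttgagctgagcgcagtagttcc
Tet2 site, chr3:133642252-133642451, plus strand: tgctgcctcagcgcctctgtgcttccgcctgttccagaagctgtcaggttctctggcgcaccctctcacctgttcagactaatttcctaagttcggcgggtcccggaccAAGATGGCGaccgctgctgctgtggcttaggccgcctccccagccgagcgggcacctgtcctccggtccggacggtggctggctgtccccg

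The remaining lists differed in size. In the LIF-Stat3 list 2 of 10 genes had a linked member: Socs3, the feedback inhibitor of the pathway, with scores of 421 and 657 and both marks in kd alone, and Pim1, in kd alone at 32. Of 28 BAF subunit genes, Arid1a had a site in control alone at 86, and Arid1b one of 229 and 242. Of 31 PRC1 and PRC2 genes 6 had members, 52 in all, of which 38 counted for Ezh2 because of the array. The others were Suz12 (kd alone, 66), Jarid2 (176 and 308), Mtf2 (kd alone, 49), Epop (69 and 23) and Rybp (300 and 446). Neural development genes, 31 in the list, had 11 members at 8 genes, and all but 1 of the 11 were masked, the exception being that of Sox1 (169 and 113). The signalling list held 21 members at 7 of 23 genes. Among them were Nodal (79 and 108), Lefty2 (152 and 59), Id1 (493 and 181), Id3 (377 and 138), Spry2 (199 and 272) and Etv4 (38 and 66).

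The highest scores of the control list belonged to sites under 50% masked. They lay at chr8:89001656-89009081 (845 in control, 563 in kd), where the nearest coding gene is Sall1, at chr7:34629143-34631258 near Kctd15 (785 and 218), at the Pou5f1 site, at chr8:87973402-87976462 near Zfp423 (736 and 474) and at chr7:73616107-73619870 near Chd2 (591 and 732). Of the 5 highest scores of the kd list, 3 were in the chromosome 6 array, at 1101, 1018 and 1010 in kd against 296, 381 and 445 in control. The others were on the Y chromosome at 911 and near Ccr1 on chromosome 9 at 899. Among sites called in kd alone the 3 highest, at 415, 383 and 370, all had a unit of 211 to 212 bases, on chromosomes 6, 14 and X. Sites called in control alone reached 144, 144 and 136. Below 10% masking, the highest in the control list were near Azin1 (548 and 440) and Cirbp (529 and 352), and the highest in control alone near Smndc1 (116) and Zfp184 (102). The highest 2 in the kd list and in kd alone below 10% masking were again in the array.

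Members were spread over the genome, at 2.39 per Mb. The X chromosome had the most, 606 or 3.71 per Mb, although its other distal Smarca4 sites were sparse, 3.24 per Mb against 6.11 to 16.3 on the autosomes. The Y chromosome held 27 members with a unit of 208 bases and 0 with a unit of 211 to 212, and the X held 128 of each. At the edge of the rule, 139 members lay 2.5 to 3 kb from a TSS, of which 40.3% were masked, and 160 sites that otherwise met the rule lay 2 to 2.5 kb away, of which 42.5% were. Members often shared an island: the 6322 sites fell into 5172 merged H3K27ac islands, of which 4525 held 1 member, 413 held 2 and 234 held 3 or more.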

How the data were processed

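Chromatin immunoprecipitation with sequencing of 81K1 cells gave 10 peak lists, 1 for each of 5 antibodies in control and kd. Per the submitters' processing notes and the methods, the authors trimmed reads with Trim Galore, aligned them to mm10 with Bowtie2, kept unique alignments with SAMtools 1.9 and called each library on its own. Smarca4 and Ezh2 peaks come with the score the authors' MACS2 run deposited. Islands of the histone marks come with the p-value the authors' SICER run deposited. The methods name input as background and peak names and labels name IgG, so that the background is not certain here. Neither value is scaled between libraries.

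Groups were taken from the sample labels. Only regions on the chromosomes numbered 1 to 19, on X and on Y entered. Smarca4 peaks were merged and overlaps computed with bedtools 2.31.1, with gene bodies and TSS of 55413 GENCODE M21 genes and the soft-masked GRCm38 sequence, which is mm10. Island ends were read as included. Deposited p-values of 0 were set to 324 on the −log10 scale. Tandem units, classed by lengths that at least 10 members held, were found as the spacing of 20 to 400 bases with the most equal bases, a step tested on simulated data, as was the search for 75-base words. Similar sites were linked with blastn 2.17.0 (word size 28, best alignment per pair), units were aligned with Biopython 1.88, and arrays were joined across up to 60 bp. Masked stretches were bridged across 50 unmasked bases. Promoter and miscellaneous gene annotation came from RefSeq on the same assembly. Intervals of shares are 95% Wilson intervals.

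The sites named are, outside chromosome 18, the 5 with the highest score of each list, the 3 highest in each condition alone, the 2 highest under 10% masked in each of these 4 classes, and the highest site linked to each gene of the lists. Nodal, Lefty2, Id1, Id3, Spry2 and Etv4 were added. The members, gene lists and words were chosen with earlier results of these data known. The alternatives were a stricter threshold (a score of 50, or 10 for H3K27ac and 20 for the other marks on the −log10 scale), lists of equal length, a TSS distance of 5 kb, coding genes alone, islands over 50% of the site, marks and Smarca4 in the same condition, masked sites left out, and unmerged touching peaks. Those with 1 site per island, without the chromosome 6 array and with sites at which at least 50% of words occur once were added after the data were seen.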

Additional observations from a re-analysis of the deposited data

How the results depend on the processing

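Each value was recomputed under 11 settings, and the surplus of sites called in kd alone kept its direction in all of them. The main values were 6322 members, 42.6% called in both conditions, a log2 ratio of 3.85 between sites in kd alone and in control alone, 82.2% masked, 13.0% with H3K4me3 in kd alone and 14.2% with H3K27ac in kd alone. In that order, and naming only values outside the counting interval of the main one, the stricter threshold gave 34.9%, 4.19, 87.5% masked and 15.8% for H3K27ac. Lists of equal length gave 38.9%, 4.50, 86.1%, 8.15% and 11.9%. A TSS distance of 5 kb gave 4.23, 85.4%, 11.4% and 13.1%. Protein-coding genes alone gave 44.8%, 3.56, 76.2%, 14.2% and 16.1%. Islands over 50% of the site gave 4.05, 84.5% and 11.6% for H3K4me3. Marks and Smarca4 in the same condition gave 44.6%, 4.59, 83.4% and 12.0% for H3K4me3. Leaving out masked sites kept 1125 members and gave 68.6%, 0.64, 43.7% and 35.2%, the largest shift, with no value for the masked share. One site per H3K27ac island gave 4.96, 89.1%, 9.16% and 12.3%. Without the chromosome 6 array 83.1% were masked and 13.1% had H3K27ac in kd alone. Sites with at least 50% of their words occurring once numbered 1928 and gave 50.6%, 1.91, 46.8%, 37.0% and 23.2%. The causes were not tested. By construction the settings change which sites count, to 7777 with protein-coding genes alone and to fewer than 6322 in the others. Unmerged touching peaks moved no value past the interval.

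With 1 library per condition, leaving out a replicate was not possible. No paired analysis was possible because no group holds a second library. Numbers of reads per site are missing from all lists. Depth is known only approximately for Ezh2, H3K27ac and H3K4me3, and is not given for Smarca4 and H3K27me3. A site that a list lacks was thus not called at a depth not exactly known, which is not the same as absent. No p-value was computed, and scores and p-values are not scaled between libraries.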
